A study of Mus musculus with 4 samples.

Results

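The levels of 9 genes, chosen by name, were lower with a hairpin against Kdm6b than with the empty vector, both in untreated cultures and in cultures treated to raise synaptic activity. The genes are Araf, Becn1, Scrt1, Scand1, Cntn1, Dnajc27, 1110001A16Rik, E130309F12Rik and 2410022L05Rik, out of 21722 genes kept in the authors' tables. They were chosen on the same libraries that are described below, so their being lower with the hairpin is a description and is not tested. The RNA came from hippocampal neurons of CD1 mice (an outbred strain) at postnatal day 0, grown for 11 days in vitro, where the labels do not tie a culture to single pups. The groups were Kdm6b shRNA with bicuculline and 4-aminopyridine, Kdm6b shRNA untreated, pLKO.1 vector with bicuculline and 4-aminopyridine, and pLKO.1 vector untreated, with 1 library each. The lentivirus was added on day 4 in vitro to every culture, so the controls carry an infection too, and the labels give 1 hairpin sequence. Bicuculline (50 µM, the labels giving 50µm) and 4-aminopyridine (2.5 mM), together Bic/4AP, were given for 3 h before harvest. Bicuculline blocks inhibitory GABA receptors and 4-aminopyridine blocks potassium channels.

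A short hairpin RNA is cut in the cell into a small guide strand that is loaded into an Argonaute protein and pairs with messenger RNA. Full pairing cuts the target. Pairing of bases 2 to 8 of the guide alone, called the seed, with a 3′ untranslated region (3′ UTR) is enough for the weaker repression that microRNAs exert. Kdm6b encodes a demethylase of histone H3 that removes a repressive methyl mark, and is the labelled target of the hairpin. Because every library with the hairpin is also a library with less Kdm6b, the action of the hairpin on other RNAs and the loss of Kdm6b cannot be told apart by the design.

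The hairpin sequence given in the labels and the guide strand complementary to it are shown first, since the match of the 9 genes to them is described below. In the labelled sequence the capitals are the bases found in the coding sequence of Kdm6b, and in the guide they are bases 2 to 8.
Labelled sequence: CTGTTCTTGAGGGACAAActc
Guide strand: gAGTTTGTccctcaagaacag
The first 18 of the 21 labelled bases occur in Kdm6b from coding base 2432 of 4923, on the minus strand of chromosome 11 at 69404991 to 69405008 of GRCm38, and the last 3 do not continue that match. No file used here shows which small RNA the cultures made, so the words that pair with the hairpin rest on the labelled sequence alone, and they would be others if a different hairpin was used.

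Sites found in the 3′ UTRs of the 9 genes are shown next, for 3 overlapping words that are described further on. At least 1 of these words was in 8 of the 9 genes and in 24.0% of 12063 other genes. The words were picked on the hairpin differences of other genes in these same libraries, so this count is a description. Each line gives 1 site of a gene from GENCODE vM21 with its position in GRCm38, written 5′ to 3′ along the transcript, and the capitals mark the word or words.
Araf, chrX:20852129-20852154, plus strand: attgagtaccTACAAGTGttgaatat
Becn1, chr11:101288085-101288109, minus strand: cagagagaggCAAGTGAccctctga
Scrt1, chr15:76516473-76516497, minus strand: gtactgattcTACAAGTagggcccg
Cntn1, chr15:92340511-92340536, plus strand: ccagctagaaACAAGTGAcagtaaag
Dnajc27, chr12:4109957-4109981, plus strand: tgaatcggggACAAGTGgtagaaag
1110001A16Rik, chr17:78920133-78920159, plus strand: ttgaggaattTACAAGTGAaaatatag
E130309F12Rik, chr4:49339224-49339248, plus strand: tctgttcatcACAAGTGttaaccac
2410022L05Rik, chr8:13884947-13884971, minus strand: tcctgtgtttCAAGTGAgatactct
Scand1 holds none of the words in its annotated 3′ UTR of 73 bases.

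Levels are given as FPKM, mapped fragments scaled to transcript length and to library size, with the authors' lower and upper bounds in brackets. Such bounds describe the precision of a single library, and the variation from culture to culture has no measure here because no group was repeated. At an FPKM of 5 or more, the upper bound stood a median of 4.18% to 4.44% above the value in the 4 libraries. Differences are in log2(FPKM + 1), which understates differences of weakly expressed genes, and a difference of at least 1 is called 2-fold. Gene positions are in mm9. In these RNAs of whole cultures, fewer cells of a type and less RNA per cell cannot be told apart.

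Araf encodes a RAF family kinase that acts upstream of MEK and ERK. It lies on chromosome X from 20425669 to 20437647. In untreated cultures its FPKM was 28.5 (27.2 to 29.9) with the hairpin and 94.5 (92.0 to 96.9) with the vector. After Bic/4AP the values were 24.0 (22.8 to 25.3) with the hairpin and 82.8 (80.4 to 85.1) with the vector. Both hairpin libraries lay below both vector libraries and no bounds overlapped between them. The differences were -1.69 untreated and -1.74 with Bic/4AP. Braf, which encodes a kinase of the same family, lay at 0.02 untreated and 0.05 with Bic/4AP.

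Becn1 encodes Beclin, a subunit of the lipid kinase complex that starts autophagosome formation. It lies on chromosome 11 from 101149581 to 101163581. Its FPKM untreated was 23.8 (22.8 to 24.8) with the hairpin and 50.4 (48.9 to 51.9) with the vector. In Bic/4AP cultures it reached 20.6 (19.7 to 21.6) with the hairpin and 51.4 (49.8 to 53.0) with the vector. The vector libraries were nearly equal, and the hairpin libraries stood at 47.2% and 40.2% of them, untreated and with Bic/4AP. Partners of Beclin in the kinase complexes were not 2-fold apart, with Pik3c3, the kinase subunit gene, at -0.04 untreated and 0.10 with Bic/4AP, Pik3r4 at -0.01 and 0.06, Uvrag at -0.01 and 0.07, Atg14 at 0.17 and 0.17, and Ambra1 at 0.23 and 0.22.

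Scrt1 and Scand1 encode regulators of transcription. Scrt1, on chromosome 15 from 76346633 to 76352559, encodes Scratch, a zinc finger repressor of the Snail group found in neurons. Without treatment, FPKM stood at 5.28 (4.95 to 5.62) with the hairpin and 19.6 (18.9 to 20.3) with the vector. Treated with Bic/4AP, the cultures gave 4.88 (4.55 to 5.21) with the hairpin and 18.5 (17.8 to 19.1) with the vector. As a share of the vector value, the hairpin value was nearly the same in both states, at 26.9% untreated and 26.4% with Bic/4AP. Scrt2, its nearest relative, lay at 0.08 untreated and 0.17 with Bic/4AP.

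Scand1, on chromosome 2 from 156137582 to 156138440, encodes a protein made of little more than a SCAN domain, which pairs with SCAN zinc finger factors. In untreated cultures its FPKM was 18.6 (16.9 to 20.2) with the hairpin and 65.7 (62.5 to 68.8) with the vector. After Bic/4AP the values were 21.96 (20.1 to 23.8) with the hairpin and 43.3 (40.7 to 46.0) with the vector. Scand1 was the one gene of the 9 whose difference with Bic/4AP, -0.95, stayed short of 2-fold, against -1.77 untreated. The change lay mostly in the vector cultures, whose Bic/4AP library held 66.0% of the untreated level.

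Cntn1 and E130309F12Rik encode proteins of the neuronal surface. Cntn1, on chromosome 15 from 91881596 to 92172398, encodes contactin, a cell adhesion molecule of axons anchored to the membrane by a lipid. Its FPKM untreated was 41.9 (41.1 to 42.8) with the hairpin and 109 (107 to 111) with the vector. In Bic/4AP cultures it reached 35.2 (34.3 to 36.0) with the hairpin and 84.2 (82.9 to 85.5) with the vector. It was the most abundant of the 9 genes in each of the 4 libraries and the one with the narrowest bounds relative to its level.

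E130309F12Rik is a former symbol of Plppr1 in RefSeq's GRCm38.p6 table, a phospholipid phosphatase-related membrane protein linked to the growth of neurites. It lies on chromosome 4 from 49072334 to 49353133. Without treatment, FPKM stood at 3.99 (3.69 to 4.29) with the hairpin and 13.2 (12.6 to 13.7) with the vector. Treated with Bic/4AP, the cultures gave 1.81 (1.60 to 2.01) with the hairpin and 8.26 (7.81 to 8.72) with the vector. It was the weakest of the 9 genes in both hairpin libraries, and all 4 libraries had separate bounds.

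Dnajc27 encodes a small GTPase of the Ras type joined to a DnaJ co-chaperone domain, and lies on chromosome 12 from 4082574 to 4110612. In untreated cultures its FPKM was 8.76 (8.37 to 9.16) with the hairpin and 19.5 (18.9 to 20.1) with the vector. After Bic/4AP the values were 7.34 (6.97 to 7.71) with the hairpin and 16.9 (16.3 to 17.5) with the vector. The share of the vector level was 44.9% untreated and 43.4% with Bic/4AP.

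2410022L05Rik is a former symbol of Coprs, whose protein brings an arginine methyltransferase to histones. It lies on chromosome 8 from 13884788 to 13890271. Its FPKM untreated was 14.6 (13.2 to 16.01) with the hairpin and 37.2 (34.9 to 39.5) with the vector. In Bic/4AP cultures it reached 15.4 (13.9 to 16.9) with the hairpin and 32.6 (30.4 to 34.8) with the vector. Of the 8 genes 2-fold lower in both states it had the smallest difference with Bic/4AP, at -1.03.

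1110001A16Rik is a former symbol of Cebpzos, named for its place on the strand opposite Cebpz, and lies on chromosome 17 from 79315839 to 79320388. Without treatment, FPKM stood at 4.46 (4.17 to 4.75) with the hairpin and 15.3 (14.1 to 16.6) with the vector. Treated with Bic/4AP, the cultures gave 4.16 (3.48 to 4.83) with the hairpin and 17.9 (16.5 to 19.3) with the vector. Its locus shares 2046 bp with Cebpz, and without strand in the counting, which no source used here states, reads from the shared part could be assigned to either gene. Cebpz itself lay at -0.02 untreated and -0.09 with Bic/4AP. Smaller overlaps were found for Araf with Syn1 (11 bp), Becn1 with Cntd1 (435 bp) and Scand1 with 4921517L17Rik (232 bp), and none of these neighbours was 2-fold apart with the hairpin.

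**Figure D1:**
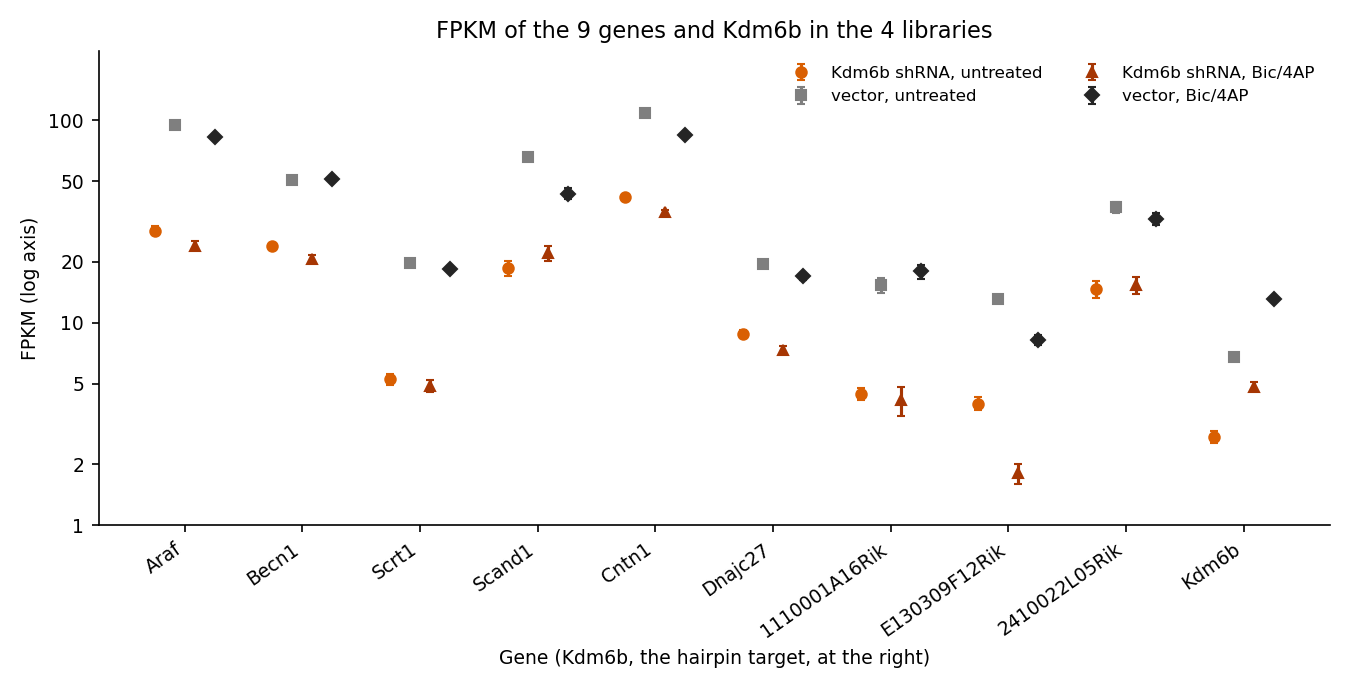
FPKM on a log axis of the 9 genes and of Kdm6b, 1 point per library with the authors' bounds as bars. For each gene the hairpin libraries (circles and triangles) lie below both vector libraries (squares and diamonds), from 28.5 and 24.0 against 94.5 and 82.8 for Araf to 3.99 and 1.81 against 13.2 and 8.26 for E130309F12Rik.

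Set side by side, the hairpin libraries held 26.9% (Scrt1) to 47.2% (Becn1) of the vector level untreated. With Bic/4AP they held 21.9% (E130309F12Rik) to 50.7% (Scand1). Kdm6b, the target, stood inside both ranges, at 40.6% untreated and 36.8% with Bic/4AP. Their median difference was -1.51 untreated and -1.28 with Bic/4AP, where the median of all genes compared was 0.05 and 0.03.

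All 9 genes were 2-fold lower untreated, as were 0.669% of 13295 genes compared, and 8 of 9 were with Bic/4AP, as were 0.536% of 13240. The bounds of all 9 lay below those of the vector in both states, which held for 22.2% of genes untreated and 21.1% with Bic/4AP. None of the 9 was 2-fold higher or had bounds above, where 0.414% and 0.189% of all genes were 2-fold higher and 33.1% and 28.6% had bounds above. All 9 differences were below 0 in both states, as were 41.1% of genes untreated and 43.6% with Bic/4AP. These counts follow from how the genes were chosen and nothing is read from them. Of 13077 genes compared in both states, 51 (0.39%) were 2-fold lower in both, namely 8 of the 9 genes and 43 others, Kdm6b among them. The genes just inside that limit in both states were Ramp3, Ntsr2 and Ikbkap, and those just outside were Sspn, Mmp2 and Nefh, all of them outside the 9.

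**Figure D2:**
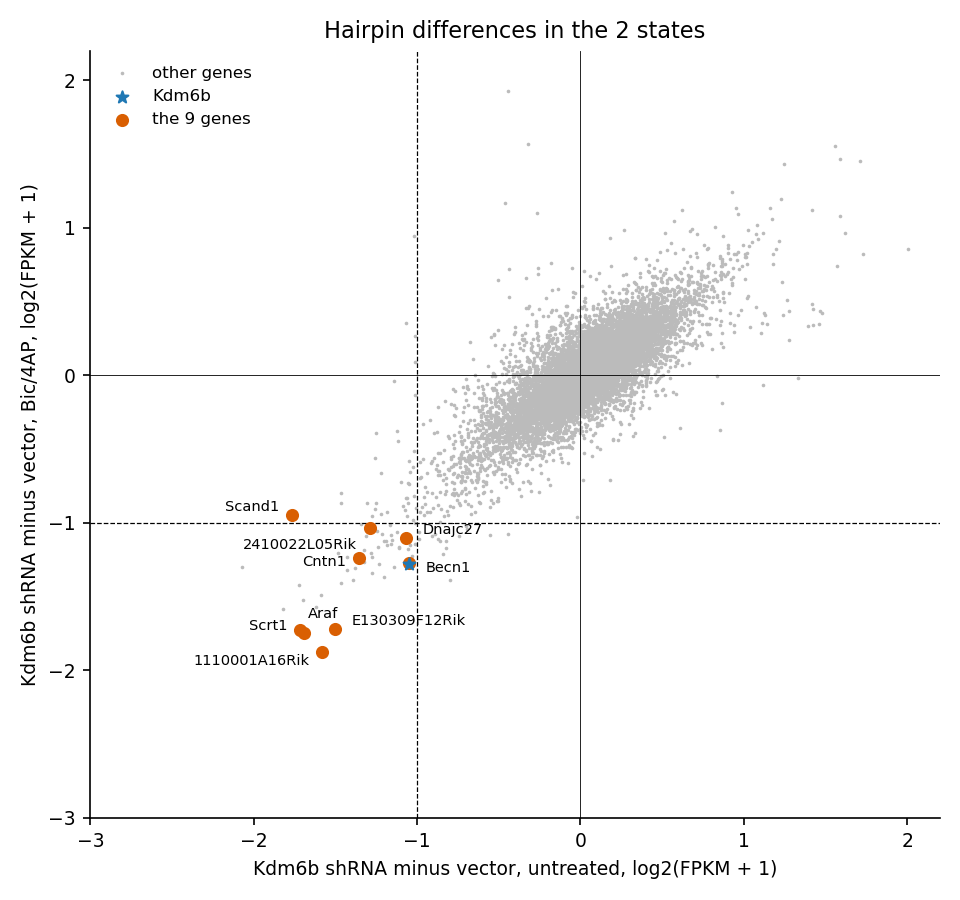
Kdm6b shRNA minus vector in log2(FPKM + 1), untreated on the horizontal and with Bic/4AP on the vertical axis, 1 point per gene for 13077 genes, of which 4 lie outside the axes. Dashed lines mark a 2-fold lower level, and 8 of the 9 genes lie beyond both lines, Scand1 being the exception at -1.77 and -0.95.

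The genes whose profile over the 4 libraries was nearest to the median profile of the 9 were Necab1, Srd5a1, Spock2, Napb and Slc39a3. Nearness was the Euclidean distance of log2(FPKM + 1), centred on each gene's own mean, among 12650 genes that reached an FPKM of 1 in each library. The distances of these 5 genes were 0.08 to 0.15, against 0.10 (Cntn1) to 0.58 (E130309F12Rik) for the 9 genes themselves. Necab1, the nearest, stood at 4.84 and 4.35 with the hairpin, untreated and with Bic/4AP, against 14.2 and 11.5 with the vector.

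The Bic/4AP contrasts were not used to choose the genes, although they draw on the same 4 libraries. None of the 9 genes was 2-fold apart in either background, where 0.158% of genes were 2-fold lower in hairpin cultures and 0.272% in vector cultures, and 2.08% and 2.22% were 2-fold higher. The differences of 7 of the 9 lay below 0 in each background, as did 65.3% of genes in hairpin cultures and 59.7% in vector cultures. In hairpin cultures 5 of 9 had bounds below the untreated bounds (37.6% of all genes did), and in vector cultures 6 of 9 did (37% of all genes), whereas none had bounds above (17% and 21.8% of all genes). In 4 of 9 the bounds were below in both backgrounds (29.4% of all genes). E130309F12Rik was lowest in both, at -0.83 with the hairpin and -0.61 with the vector. Its FPKM in hairpin cultures with Bic/4AP was 45.3% of untreated, short of the 2-fold call because of the 1 added to FPKM. Cntn1, at -0.25 with the hairpin and -0.37 with the vector, Araf, at -0.24 and -0.19, and Dnajc27, at -0.23 and -0.19, were lower in both backgrounds with separate bounds. Scrt1 lay at -0.10 with the hairpin and -0.08 with the vector, with overlapping bounds in each. Kdm6b moved the other way from these genes in both backgrounds, at 0.64 with the hairpin and 0.87 with the vector.

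With Bic/4AP minus untreated, the hairpin difference moved by between -0.29 (1110001A16Rik) and 0.26 (2410022L05Rik) in 8 of 9, and 98.2% of all genes moved by 0.5 or less. Scand1, at 0.82, stood higher than 99.8% of genes. There was no replicate to set these movements against.

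**Figure D3:**
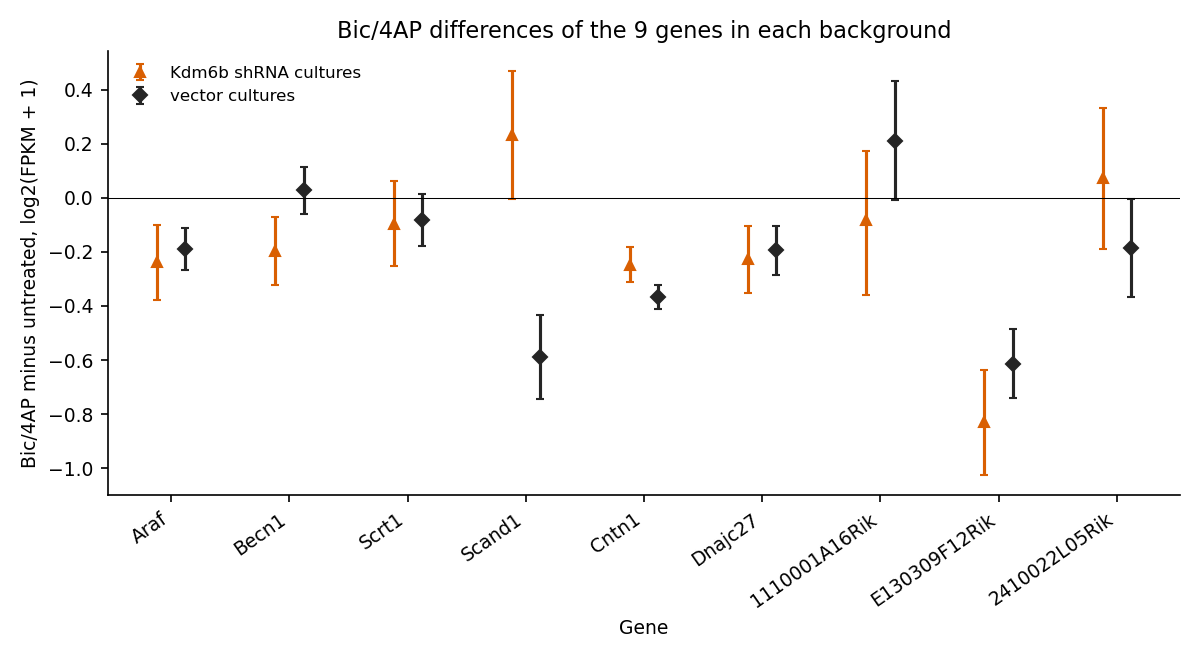
Bic/4AP minus untreated in log2(FPKM + 1) for the 9 genes in Kdm6b shRNA cultures (triangles) and vector cultures (diamonds), with bars from the extremes of the authors' bounds. E130309F12Rik lies lowest in both backgrounds (-0.83 and -0.61), and Scand1 has points on either side of 0 (0.23 and -0.59).

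Members of the pathways that the 9 genes belong to were compared as lists, each without the gene of the 9. None of 23 other RAF, MEK and ERK pathway genes was 2-fold apart with the hairpin in either state, the lowest being Nras, a Ras GTPase gene, at -0.51 untreated and -0.64 with Bic/4AP. None of 29 other autophagy genes was, with Map1lc3a, an autophagosome membrane protein gene, at -0.48 and -0.17 and Ulk1, an autophagy kinase gene, at 0.47 and 0.46. The same held for 16 contactins and partners, where Cntnap4 lay lowest at -0.59 and -0.64, and for 24 DNAJC co-chaperones, where Dnajc5 lay lowest at -0.41 and -0.42. It held also for the Snail and Scratch list (5 genes compared untreated and 4 with Bic/4AP) and the SCAN domain list (14 and 12). The medians of these 6 lists lay between -0.07 and 0.16 untreated and between 0.03 and 0.10 with Bic/4AP.

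Genes that serve small RNAs and genes of the methyl mark were looked at beside them. None of 16 small RNA machinery genes was 2-fold apart in either state, with Eif2c2, the gene of the slicing Argonaute, at -0.20 untreated and -0.16 with Bic/4AP. None of 9 other enzymes and partners that set or remove the methyl mark was, with Kdm6a, the closest relative of Kdm6b, at 0.26 and 0.24. Interferon-stimulated genes, which respond among other things to double-stranded RNA, were 2-fold higher with the hairpin in 11 of 18 untreated and in 0 of 18 with Bic/4AP, where the medians were 1.14 and 0.33. Their part in the differences of the 9 genes was not tested.

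Neuronal markers were present in all libraries, and 0 of 6 were 2-fold apart with the hairpin in either state. Snap25 stood at 417 and 429 with the hairpin and 452 and 383 with the vector, untreated and with Bic/4AP. Of the neuronal markers, 6 of 6 lay below 0 untreated and 3 of 6 with Bic/4AP, with medians of -0.14 and -0.01. Of all genes, 41.1% and 43.6% lay below 0. Astrocyte markers were abundant too (0 of 8 were 2-fold apart), so the cultures held more than neurons. Microglia markers were 2-fold lower with the hairpin in 5 of 9 compared untreated and in 3 of 8 with Bic/4AP. Their summed FPKM was 38.0 and 45.3 with the hairpin, against 110 and 118 with the vector. Lyz2, a lysozyme gene, made up much of these sums, at 15.8 and 22.5 with the hairpin against 58.4 and 69.4 with the vector. Of the microglia markers compared, 8 of 9 lay below 0 untreated and 6 of 8 with Bic/4AP. P2ry12 lay above 0 in both states, at 0.24 untreated and 0.10 with Bic/4AP, and Aif1 lay at -0.08 and 0.04. Cx3cr1 was at -0.14 untreated and did not reach an FPKM of 1 with Bic/4AP. Excitatory neuron markers were 2-fold apart in 0 of 6 in both states, and lay below 0 in 6 of 6 untreated and 4 of 6 with Bic/4AP. Their sums were 448 and 387 with the hairpin against 630 and 454 with the vector. Inhibitory neuron markers were 2-fold lower in 3 of 8 untreated and 0 of 8 with Bic/4AP. In both states 8 of 8 lay below 0, with medians of -0.55 untreated and -0.41 with Bic/4AP. The summed FPKM of the inhibitory markers was 449 and 711 with the hairpin against 987 and 1004 with the vector. No marker of these lists was listed at 0 in both libraries of a comparison. The part of these cell types in the differences of the 9 genes was not tested.

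The 3′ UTRs of the 9 genes were then searched for the words that pair with the labelled hairpin. The word for guide bases 2 to 8 of the labelled hairpin is ACAAACT. It occurs in the longest annotated 3′ UTR of 0 of the 9 genes, and in 12.8% of the 12073 genes that reached an FPKM of 1 in each library and have an annotated 3′ UTR. Only the transcript strand was searched. Genes with this word had a median hairpin difference of 0.04 untreated and 0.02 with Bic/4AP, against 0.05 and 0.03 for genes without it. The word for the other strand of the hairpin, AAGAACA, was in 0 of 9 and in 18.1% of genes. The word GGGACAA, for a guide to the 21 bases of Kdm6b that end where the label stops matching, was in Dnajc27 only (9.53% of genes). With the guide start moved inward by 1 base the word was in 0 of 9 (8.04% of genes), inward by 2 in 1 of 9 (10.8%) and outward by 1 in 0 of 9 (11.7%), and its 8-base form was in 0 of 9 (2.92%). These counts are near the shares over all genes and are no result about the 9 genes.

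All 7-base words were then ranked without regard to the hairpin. For each of 8611 words present in the 3′ UTRs of at least 1000 genes, the mean hairpin difference of the genes that hold it was taken, after correction for 3′ UTR length and base composition. The 9 genes and Kdm6b were left out of this ranking. With Bic/4AP the lowest word was ACAAGTG, at -0.12 over 1462 genes. Untreated, the same word was the lowest of 8611, also at -0.12. That pair shares no library with the Bic/4AP pair, but it compares the same hairpin and vector over the same genes. It is therefore no independent check of the word, and an earlier word search of these data was known. The next in both states were TACAAGT, at -0.11 untreated and -0.11 with Bic/4AP, and CAAGTGA, at -0.11 and -0.10, which overlap it by 6 bases. All other words outside the 39 that hold CAAGT, the 5 bases common to the 3 words, had means above -0.06. The labelled hairpin's word ranked 1182 untreated and 3169 with Bic/4AP, with means of -0.01 and -0.00.

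**Figure D4:**
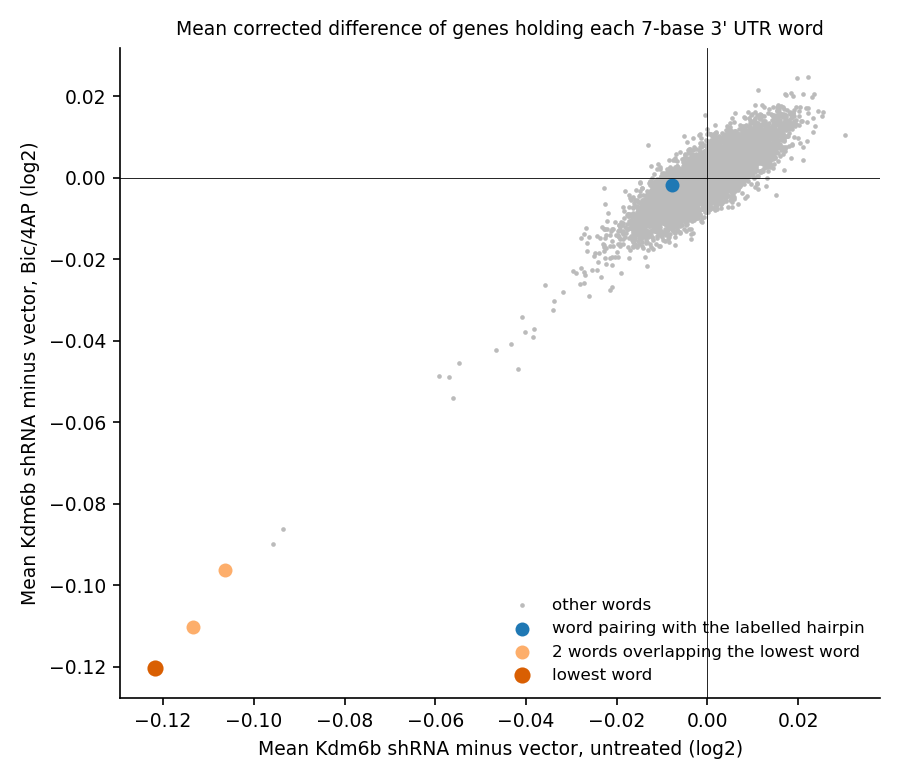
Mean hairpin difference, corrected for 3′ UTR length and composition, of genes holding each of 8611 words of 7 bases, untreated on the horizontal and with Bic/4AP on the vertical axis, 1 point per word. The lowest word lies at -0.12 on both axes and 2 overlapping words lie next to it, whereas the word that pairs with the labelled hairpin lies among the other words near 0.

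These 3 overlapping words were then counted in the 9 genes. The lowest word was in 5 of 9 (12.1% of 12063 other genes), the lowest word or its neighbour CAAGTGA in 7 of 9 (18.9%), and any of the 3 in 8 of 9 (24.0%). Araf and Dnajc27 each have 3 sites in their longest 3′ UTR and the other 6 genes have 1. 1110001A16Rik holds all 3 words in a single run of 9 bases, although its 3′ UTR has only 332 bases. Genes for this set were proposed when an earlier search of these data for 3′ UTR words was known, so these shares are a description too. The median 3′ UTR had 2378 bases for the 9 genes and 1260 for the other genes, and the shares are not corrected for length.

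The annotation matters for Araf. Its sites lie in the longest 3′ UTR, of 872 bases, which belongs to a transcript with 558 coding bases. The transcript with the longest coding sequence, 1812 bases, has a 3′ UTR of 406 bases without a site, and 1 match to TACAAGT in its coding sequence. Taking for every gene the transcript with the longest coding sequence, 7 of 9 genes held a word, against 21.5% of genes. Scrt1 and Dnajc27 hold ACAAGTG once in their coding sequence as well.

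The 40 other genes that were 2-fold lower in both states and had an annotated 3′ UTR were not chosen by name. Of these, 26 (65.0%) held any of the 3 words, against 24.0% of all genes, while 3 (7.50%) held the labelled hairpin's word, against 12.9%. Of 44 genes 2-fold higher untreated, 3 (6.82%) held any of the 3 words. Their median 3′ UTR had 789 bases, against 1368 for the 40 lower genes and 1260 for all genes. These shares are not corrected for length. The ranking had used the 40 and the 44 genes too. Without the genes 2-fold lower in either state, ACAAGTG ranked lowest in both states, at -0.10 in each over the remaining 11978 genes. Most genes that had picked the word remained in this repeat, so it is a description and not a test.

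Over the other genes, the hairpin difference is given by the form of the word. The 3 words were picked as the lowest over these same genes, so the gap between genes with and without them restates that choice and is a description. Genes with the 8-base form ACAAGTGA (374 genes) had a median hairpin difference of -0.14 untreated and -0.13 with Bic/4AP, and 3.74% and 4.28% of them were 2-fold lower. With ACAAGTG but not the 8-base form (1088 genes) the medians were -0.05 and -0.06, and 1.38% and 0.827% were 2-fold lower. With CAAGTGA but not ACAAGTG (814 genes) the medians were -0.01 and -0.02, and with TACAAGT alone (614 genes) -0.01 and -0.03. With none of them (9173 genes) the medians were 0.07 and 0.05, and 0.371% and 0.207% were 2-fold lower. Among 3′ UTRs of at least 1000 bases, medians were -0.03 and -0.04 with any word and 0.07 and 0.06 with none. Length was not matched there, with median 3′ UTRs of 2843 bases with any word and 1903 with none. The part of length in the gap was not tested. Genes with 1 site, 2 sites and 3 or more sites had medians of -0.02, -0.08 and -0.10 untreated, and -0.04, -0.09 and -0.09 with Bic/4AP. Their median 3′ UTRs had 2208, 3261 and 5044 bases, and these medians are not corrected for length. For Bic/4AP minus untreated in hairpin cultures, medians of the word forms in the same order were -0.0890, -0.0860, -0.0824 and -0.0612, and -0.0875 for none. In vector cultures they were -0.0657, -0.0757, -0.0822 and -0.0385, and -0.0695 for none. The words ranked lowest in both hairpin contrasts, so like medians in both backgrounds are no separate check.

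**Figure D5:**
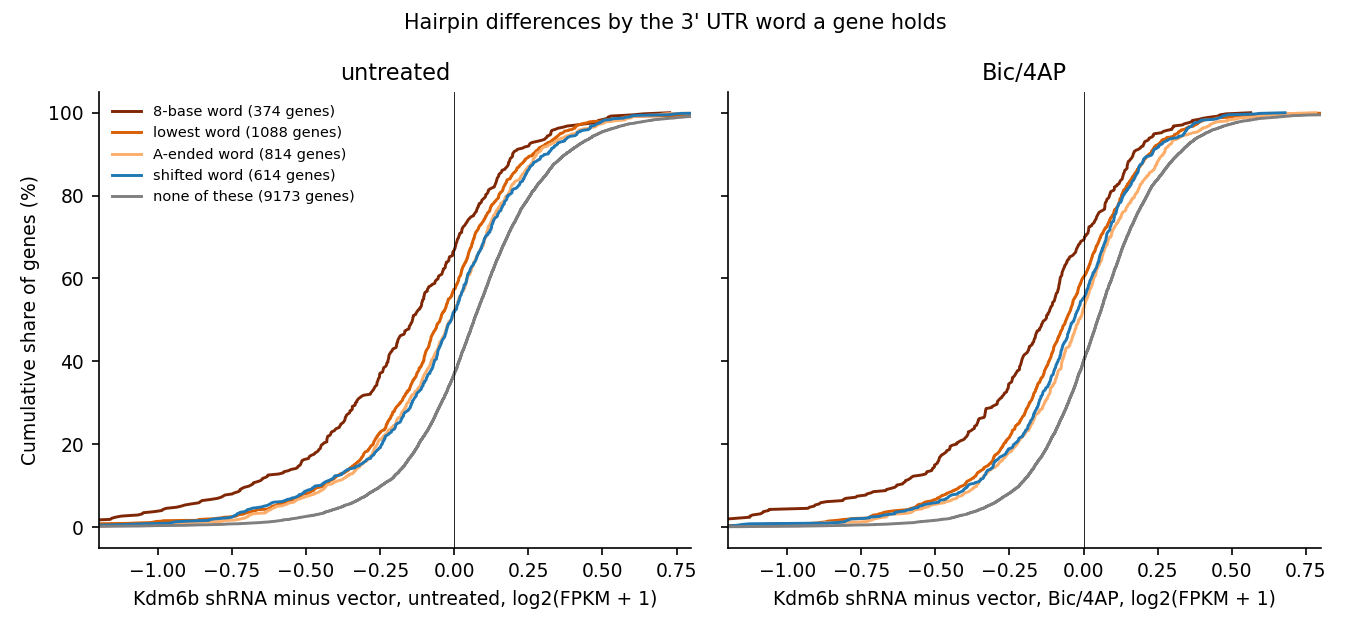
Cumulative share of genes by Kdm6b shRNA minus vector difference in log2(FPKM + 1), untreated at the left and with Bic/4AP at the right, for genes grouped by the word in their longest 3′ UTR, without the 9 genes and Kdm6b. The words were picked on these differences, so the gap between curves is a description. The curve of 374 genes with the 8-base word lies farthest to the left (66.8% and 69.3% below 0) and that of 9173 genes with none of the words farthest to the right (37.1% and 40.1% below 0).

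The 3 words join to TACAAGTGA. This run of 9 bases occurs once in the coding sequence of Kdm6b, at coding base 4758 of 4923, and is shown here because Kdm6b is the target, with the run in capitals.
Kdm6b, chr11:69400067-69400094, minus strand: tcctgttcgtTACAAGTGAgaatggcag
It lies outside the bases shared with the labelled hairpin. The run was found in the coding sequence of 68 of 12073 genes (0.563%) and in the 3′ UTR of 93 (0.770%). These shares take no account of sequence length, and the coding sequence of Kdm6b has 4923 bases. The run was joined from the 3 words after they had been ranked. Among the 92 genes with the run in the 3′ UTR, apart from the 9, the median hairpin difference was -0.14 in both states, and among 67 with it in the coding sequence, apart from Kdm6b, -0.05 in both. The 3′ UTR of Kdm6b, of 1318 bases, holds none of the 3 words. Of 1738 mature mouse microRNAs in the RefSeq table (GRCm38.p6), 0 have bases 2 to 8 that pair with ACAAGTG, and 1, mmu-miR-7217-5p, has bases 2 to 8 that pair with TACAAGT. Small RNAs were not analysed here, and the part of pairing to any small RNA, or of lower Kdm6b, in the levels of the 9 genes was not tested.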

How the data were processed

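PolyA-enriched RNA of 4 cultures was sequenced with the Illumina TruSeq kit, per the labels' protocols. The deposited tables hold FPKM computed by the authors, with a lower and an upper bound, for 22878 rows. Build mm9 with Cufflinks 2.0.2, TopHat2 2.0.8b and CASAVA 1.8 is listed in the submitters' processing notes, and the annotation is not given in the sources used here. Read totals were not used here.

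Rows of 1 symbol were summed, symbols with a failed row and small RNA genes recognised by symbol were left out, and FPKM were not rescaled. Comparisons took genes reaching an FPKM of 1 in either library, with a pseudocount of 1. No test was made, as each group is a single library. Named genes besides the 9 are Kdm6b, pathway members at the ends of their lists or closest to the 9 genes in function, profile neighbours and genes at the 2-fold limit. Pathway relatives such as Braf, Pik3c3 and Scrt2, and overlapping neighbours, were named after their values were seen. The 9 genes, the lists and the word search were chosen with earlier results of these data known.

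3′ UTRs came from GENCODE vM21 (GRCm38), the longest per gene and at least 50 bases, for 12073 of 12617 genes (95.7%), matched by symbol or RefSeq synonym, with words searched on the transcript strand only. Alternatives were other pseudocounts, filters, scalings and row rules, other word forms and other transcripts. Python 3.11.15, pandas 2.3.3 and numpy 2.4.6 were used.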

Additional observations from a re-analysis of the deposited data

Results flagged for a closer look

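The Bic/4AP difference of Scand1, 2410022L05Rik, Becn1 and 1110001A16Rik had opposite signs in hairpin and vector cultures. How many of all genes had opposite signs was not counted, so nothing is read from the number of these genes. With 1 library per group the difference between backgrounds was not tested. For Scand1 the difference was 0.23 with the hairpin and -0.59 with the vector, 0.82 apart, with bounds that overlapped with the hairpin and were separate with the vector. For 2410022L05Rik it was 0.07 with the hairpin and -0.19 with the vector, 0.26 apart, with bounds overlapping only with the hairpin. For Becn1 it was -0.20 with the hairpin and 0.03 with the vector, a difference of -0.22, with bounds overlapping only with the vector. For 1110001A16Rik it was -0.08 with the hairpin and 0.21 with the vector, a difference of -0.29, with overlapping bounds in each background.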

How the results depend on the processing

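No paired analysis was possible because each group has 1 library, and no replicate could be left out. The count of the 9 genes 2-fold lower stayed at 9 untreated and 8 with Bic/4AP under every filter, scaling, row and bound alternative and at a pseudocount of 0.1. At a pseudocount of 5 it was 7 untreated and 5 with Bic/4AP, and 4 genes were 2-fold lower in both states. The count of all genes 2-fold lower in both states was 82 at a pseudocount of 0.1 and 19 at 5. At 0.1, 1 of the 9 genes, E130309F12Rik, was 2-fold lower with Bic/4AP in hairpin cultures (-1.10). Among the differences of the 9 genes, the Bic/4AP difference of Becn1 in vector cultures alone changed sign, to -0.0003 with scaling to a common sum. The labelled hairpin's word was found in 1 of 9 genes as the 6-base match (34.7% of all genes), with the guide start moved inward by 2 (10.8%), in the coding sequence (10.7%), and for the guide to the 21 Kdm6b bases (9.53%), and in 0 of 9 otherwise. Any of the 3 words was found in 3 of 9 coding sequences (24.6% of all genes), in 5 of 5 genes with a 3′ UTR of at least 1000 bases (35.8%), and in 7 of 9 with the transcript of longest coding sequence (21.5%), and the lowest word alone in 5 of 9 (12.2%). The lowest word kept rank 1 in both states without correction for length and composition and with words in at least 500 genes. Scaling to a common sum took the median Bic/4AP difference of all genes in hairpin cultures to -0.12, against -0.08.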
